A study of Physcomitrium patens with 5 samples.

Results

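Fully rehydrated and hydrated gametophores of the moss Physcomitrium patens were compared through the regions that the authors listed as differing in DNA methylation between these 2 libraries. Members are all genes with an entry in the authors' column for the hydrated against the fully rehydrated library, which gave 127 of the 225 genes in the deposited table and 132 of its 224 regions. A region listed for neighbouring genes was counted once. The plants grew on BCD medium, a mineral culture medium for this moss, and each state was represented by 1 bisulfite library of gametophores, the leafy shoots. The series also holds moderately dehydrated, severely dehydrated and partially rehydrated libraries, 1 of each, and the labels give no strain, age, drying time or rewetting time. With 1 library per state there was no replicate error to hold a difference against, and no test was made.

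Cytosine methylation in plants occurs in the CG, CHG and CHH contexts and is kept up by different methyltransferases. In this moss it is concentrated in transposable elements and other silent chromatin, while most active genes carry little of it. P. patens is known for gametophores that survive considerable loss of water and resume growth when rewetted. Bisulfite treatment leaves methylated cytosines as they are and turns unmethylated ones into uracil, so the share of cytosines read as methylated gives a methylation level.

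Per the file headers, each entry names a part of the gene (the body, or the flank of 2 kb upstream or downstream), the ends of a region, a methylation ratio and a direction. All values are the authors' log2 ratios, read here as full rehydration over hydrated. Regions with the same ends in 2 comparisons served to find the order of the ratio. With the hydrated library below the line, 6 hydrated levels fitted both ratios at Pp1s439_5V6 and 2 fitted both at Pp1s84_5V6, and with it above the line 0 fitted at either gene. Each ratio equalled a quotient of 2 whole percents, with 0.001 in place of a level of 0 on the scale of fractions. A single pair of percents gave the ratio in 63 of the 132 regions (47.7%), and these levels are called recovered. That the authors' levels were whole percents, with that constant for 0, is a premise read from the ratios, which no source used here states, and every level printed here rests on it. The order of the ratio was also found with whole percents, so the reading of each region as higher or lower rests on that premise too. Recovery needs a level above 50% or a level of 0, so recovered levels are not typical of the list. For the other regions the smallest and largest possible pairs are given. No read depth, cytosine context or genome build is given in the sources used here, and scaffold positions are those of the deposited table.

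Methylation was higher after full rehydration in 74 regions and lower in 58, which puts 56.1% of the listed regions on the higher side (95% exact Clopper-Pearson interval 47.2 to 64.7, counting error over listed regions only). Among the 70 regions with an absolute log2 ratio of at least 1.5, 34 were higher (48.6%), so the side of the majority turned with that minimum. Of the 127 genes, 71 had only higher regions (55.9%), 55 only lower ones and 1, Pp1s332_18V6, both. These percentages are the background for the gene groups described next, since the number of genes the authors examined is not given. The smallest size in the authors' deposited table was 1 on the log2 scale, a 2-fold difference, and the median size was 1.58 (95% interval 1.38 to 1.85). Lower regions had a median size of 1.81 (95% interval 1.39 to 2.50) and higher regions one of 1.39 (1.22 to 1.75) in the authors' deposited table. The intervals of these medians treat listed regions as independent, although 24 regions share bases with another listed region. With 1 library per state they hold no error between libraries, and whether sizes differ between lower and higher regions was not tested. The medians include 11 lower and 8 higher regions with a level of 0, whose size depends on the constant used for 0. Regions were 204 to 716 bases long, with a median of 355.

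**Figure D1:**
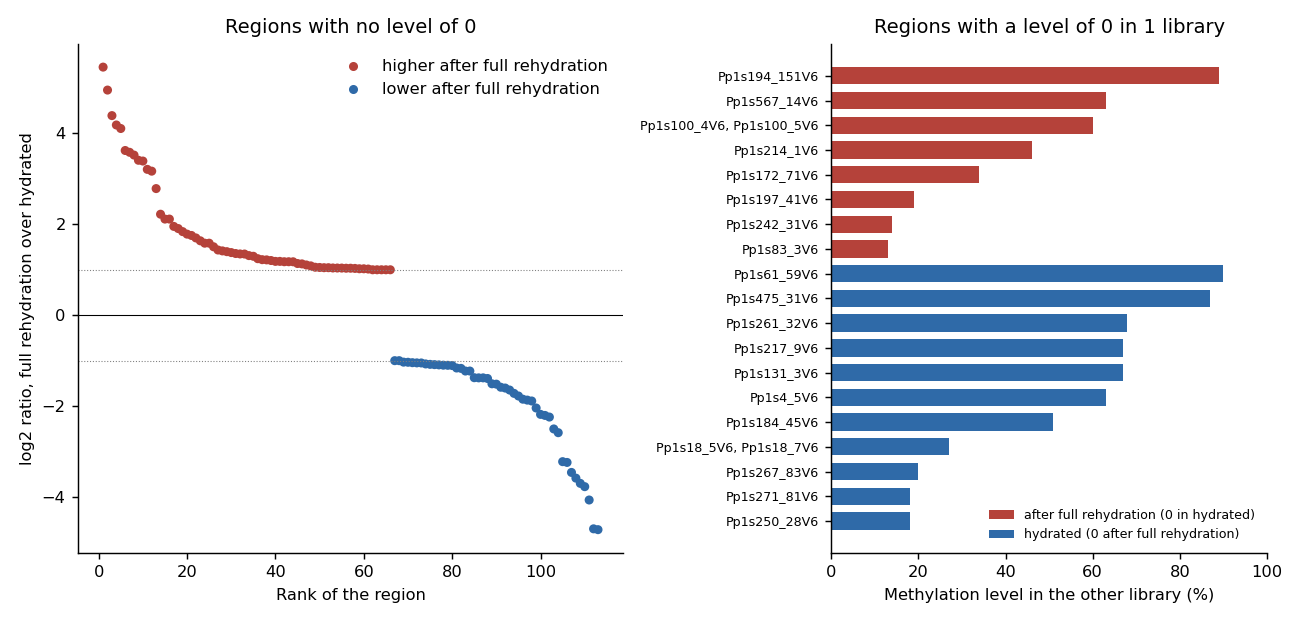
The left plot ranks the 113 regions with no level of 0 by their log2 ratio, full rehydration over hydrated, with dotted lines at the smallest listed size of 1. The right plot gives the level (%) in the library that was not at 0 for the other 19 regions, where 11 were at 0 after full rehydration and 8 in the hydrated library.

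How far the levels moved can be bounded for every region. The difference between the libraries was at least 10 percentage points in 110 regions (83.3%), at least 20 points in 79 (59.8%), at least 30 points in 59 (44.7%) and at least 50 points in 26 (19.7%), whichever pair of percents is taken. At the other end, a ratio of exactly 2-fold left 50 possible pairs in 7 regions, from 1 point to 50 points apart. Among the 24 higher regions with both levels recovered and above 0, the median level was 71.5% after full rehydration and 31.0% in the hydrated library. Among the 20 such lower regions it was 25.0% after full rehydration and 80.5% in the hydrated library. The differences ran from 29 to 86 points upwards and from 31 to 76 points downwards. Without a level of 0, recovery needs a larger level above 50%, and a ratio of at least 2-fold then keeps the smaller one at 50% or less. These medians and the smallest differences are therefore set in part by the rule of recovery.

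**Figure D2:**
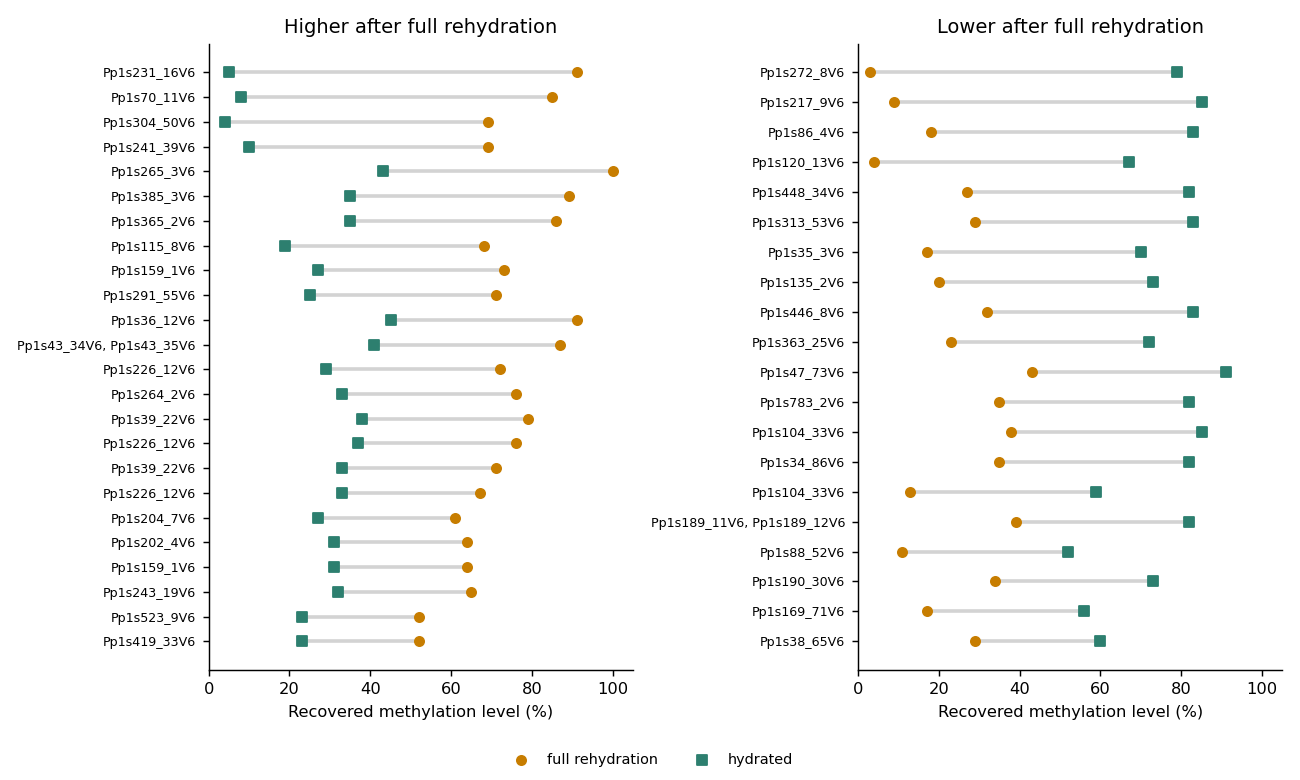
Recovered methylation level (%) of each region with both levels above 0, as circles for full rehydration and squares for hydrated, with 24 higher regions on the left and 20 lower ones on the right. Regions are ordered by the size of the difference, which runs from 29 to 86 points on the left and from 31 to 76 points on the right.

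Some of the widest recovered differences with both levels above 0 lay at genes without an orthology definition. Pp1s231_16V6 was at 91% after full rehydration and 5% in the hydrated library in its downstream flank, and Pp1s70_11V6 at 85% after full rehydration and 8% in the hydrated library, also downstream. A region upstream of Pp1s265_3V6 was fully methylated (100%) after full rehydration, against 43% in the hydrated library. In the other direction, Pp1s272_8V6, which carries the ontology term for an oxidoreductase acting on sulfur groups, was at 3% after full rehydration and 79% in the hydrated library in its downstream flank.

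Regions with a level of 0 in 1 library numbered 19, or 14.4% of the list (exact interval 8.89 to 21.6). The fully rehydrated library was at 0 in 11 of them, where the hydrated level ran from 18% to 90% with a median of 63%. The hydrated library was at 0 in 8, where the level after full rehydration ran from 13% to 89% with a median of 40%. No fold is given against a level of 0, and without the coverage it is not known how many reads such a level rests on. They were 204 to 548 bases long (median 351), and the other regions 205 to 716 (median 358). Most of them were at genes without a named product, as were most genes of the list, where 45 of 127 had an orthology definition. Upstream of Pp1s61_59V6 the level was 0 after full rehydration and 90% in the hydrated library, and downstream of Pp1s475_31V6 it was 0 after full rehydration and 87% in the hydrated library. Pp1s261_32V6 was at 0 after full rehydration and 68% in the hydrated library, Pp1s4_5V6 at 0 (full rehydration) and 63% (hydrated), and Pp1s184_45V6, with a DNA metabolism term, at 0 (full rehydration) and 51% (hydrated). Upstream of Pp1s567_14V6 the level was 63% after full rehydration and 0 in the hydrated library. With the hydrated library at 0 as well, the level after full rehydration was 60% in the flank shared by Pp1s100_4V6 and Pp1s100_5V6, 34% upstream of Pp1s172_71V6, 14% downstream of Pp1s242_31V6 and 13% upstream of Pp1s83_3V6.

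Functional groups were read from the orthology definitions, which 45 genes had, of which 24 were higher and 21 lower. By word patterns, 34 of these fell into 13 of 14 lists. Of these definitions, 13 end in a further orthology identifier that may stand for another protein, so the names of those genes are provisional. They include MOB1, PRP4, RPM1, SETD2, TPR, casein kinase 1, the cyclin-dependent kinase, the thioesterase FATB, the mitochondrial carrier and the RPS2-like gene Pp1s95_7V6.

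**Figure D3:**
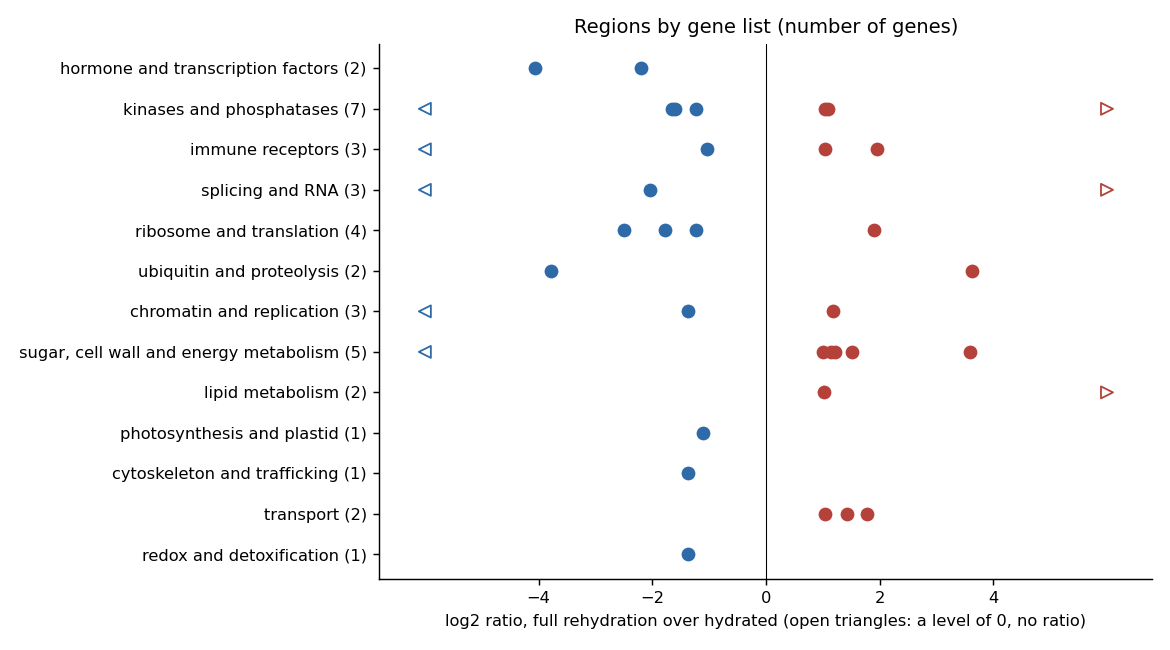
Each point is a listed region of a gene matched by its orthology definition, placed by its log2 ratio, full rehydration over hydrated, with the number of genes per list in brackets. Open triangles at the margins mark regions with a level of 0, which have no ratio. Both genes of the hormone and transcription factor list are lower, and 4 of 5 genes of the sugar, cell wall and energy list are higher.

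Both transcriptional regulators with a definition were lower upstream of the gene. The auxin response factor gene Pp1s86_4V6, whose products bind auxin-responsive promoters, was at 18% after full rehydration and 83% in the hydrated library on scaffold 86 from 63345 to 63573. The EREBP-like gene Pp1s120_13V6, of the family of ethylene-responsive element binding proteins, was at 4% (full rehydration) and 67% (hydrated) on scaffold 120 from 63093 to 63668. A region downstream of Pp1s217_9V6, which has terms for DNA binding and transcription but no definition, was listed at 0 after full rehydration and 67% in the hydrated library. An overlapping region there was at 9% (full rehydration) and 85% (hydrated).

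Of 7 kinase and phosphatase genes by definition, 3 were higher and 4 lower, and the median log2 ratio over their regions was -1.23, against 1.03 over all 132 regions. A region upstream of Pp1s214_1V6, annotated as a cyclin-dependent kinase of the family that drives the cell cycle, was at 46% after full rehydration and 0 in the hydrated library. The gene for PBS1 (Pp1s43_35V6), a cytoplasmic kinase of immunity in Arabidopsis, shared a region with its neighbour Pp1s43_34V6, annotated as the nuclear pore protein TPR, at 87% (full rehydration) and 41% (hydrated). Downstream of a casein kinase 1 gene (Pp1s489_24V6) the log2 ratio in the authors' deposited table was 1.04, where the possible levels were 37% (full rehydration) and 18% (hydrated), or 74% (full rehydration) and 36% (hydrated). On the lower side, the body of Pp1s783_2V6, annotated as FLS2, the receptor for bacterial flagellin in Arabidopsis, was at 35% after full rehydration and 82% in the hydrated library. Downstream of a multiple inositol-polyphosphate phosphatase gene (Pp1s363_25V6) the levels were 23% (full rehydration) and 72% (hydrated), and downstream of the protein phosphatase methylesterase 1 gene (Pp1s448_34V6), which removes a methyl group from a protein phosphatase, 27% (full rehydration) and 82% (hydrated). The body of Pp1s250_28V6, annotated as PRP4, a kinase of splicing in fission yeast and mammals, was at 0 after full rehydration, against 18% in the hydrated library. Matching the ontology terms as well brought the list to 16 genes, 9 higher and 7 lower, with a median log2 ratio of 1.04, so the side of the median depended on the match. Among the added genes, Pp1s304_50V6, with a phosphatase term, was at 69% after full rehydration and 4% in the hydrated library. Pp1s332_14V6 and Pp1s332_17V6, with protein kinase terms, shared a region at 3.17 in the authors' deposited table. Others were added by their terms although defined otherwise, among them the SWI/SNF gene Pp1s9_14V6, the RPM1 gene Pp1s508_5V6 and the MOB1 gene Pp1s282_60V6.

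The 3 genes matched by the immune receptor list had 2 higher and 2 lower regions. The FLS2 gene Pp1s783_2V6, lower in its body, was counted with the kinases and not here. Upstream of Pp1s18_7V6, defined as RPS2, an intracellular immune receptor in Arabidopsis, 1 region was at 0 after full rehydration and 27% in the hydrated library, and a region 517 bases further on stood at -1.04 in the authors' deposited table. The other RPS2-like gene, Pp1s95_7V6, was higher in its body, at 1.95 in the authors' deposited table, where the levels can be 31% (full rehydration) and 8% (hydrated) at the least and 93% (full rehydration) and 24% (hydrated) at the most. Pp1s508_5V6, annotated as RPM1, also an immune receptor in Arabidopsis, stood at 1.04 downstream in the authors' deposited table. Its possible levels were 39% (full rehydration) and 19% (hydrated), or 78% (full rehydration) and 38% (hydrated).

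Genes for RNA processing and protein synthesis were found on both sides. Of 3 splicing and RNA genes, 1 was higher and 2 lower, with a median log2 ratio of -2.04. Matching the ontology terms as well gave 6 genes, 3 higher and 3 lower, with a median log2 ratio of -0.51. That value lies midway between regions of opposite sides, and no listed region had a ratio of that size. The genes so added included those for ribosomal proteins L14e and L24, which are also in the ribosome list. The upstream flank of Pp1s197_41V6, for subunit 3 of splicing factor 3B in the U2 particle of the spliceosome, was at 19% after full rehydration and 0 in the hydrated library. That of the RNA helicase gene DDX5 (Pp1s35_3V6) was at 17% (full rehydration) and 70% (hydrated), and PRP4 was the other lower gene. Of 4 ribosome and translation genes, 1 was higher and 3 lower, with a median log2 ratio of -1.50. Upstream of the large subunit ribosomal protein L24 gene (Pp1s359_26V6), the authors' deposited table gave -2.50, with levels of 3% (full rehydration) and 17% (hydrated) at the least and 15% (full rehydration) and 85% (hydrated) at the most. Upstream of the small subunit ribosomal protein S9e gene (Pp1s14_31V6) the authors' deposited table gave -1.78. The upstream flank of the tRNA 2-thiolation protein 2 gene (Pp1s34_86V6), which modifies the wobble base of some transfer RNAs, was at 35% after full rehydration and 82% in the hydrated library. The higher gene was that for ribosomal protein L14e (Pp1s101_10V6), at 1.91 downstream in the authors' deposited table.

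Of 3 chromatin genes, 1 was higher and 2 lower, with a median log2 ratio of -1.38, and the 2 protein turnover genes were on opposite sides. The SWI/SNF remodeller gene Pp1s9_14V6 stood at -1.38 upstream in the authors' deposited table, and it was also the single match of the cytoskeleton list, through the word actin in its definition. Upstream of Pp1s271_81V6, annotated as acinus, a nuclear protein tied to chromatin condensation and splicing in mammals, the level was 0 after full rehydration and 18% in the hydrated library. The body of Pp1s523_9V6, annotated as SETD2, a histone methyltransferase in mammals, was at 52% (full rehydration) and 23% (hydrated). For turnover, the region upstream of the ClpS gene (Pp1s40_52V6), an adaptor that feeds substrates to the Clp protease in bacteria, stood at 3.62 in the authors' deposited table, with levels of 37% (full rehydration) and 3% (hydrated), or 74% (full rehydration) and 6% (hydrated). The region upstream of the ubiquitin-conjugating enzyme E2 O gene (Pp1s460_7V6) stood at -3.77 in the authors' deposited table, with levels of 3% (full rehydration) and 41% (hydrated), or 6% (full rehydration) and 82% (hydrated).

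Of the 5 genes of sugar, cell wall and energy metabolism, 4 were higher and 1 lower, with a median log2 ratio of 1.18. Downstream of the gene for the pyruvate dehydrogenase E2 component (Pp1s291_55V6), the acetyltransferase of the complex that makes acetyl-CoA, the level was 71% after full rehydration and 25% in the hydrated library. The body of the cellulose synthase A gene (Pp1s15_30V6) stood at 3.58 in the authors' deposited table, and a region overlapping it by 102 bases and listed as downstream stood at 1. In the authors' deposited table, the gene defined as NADH dehydrogenase I subunit 4 (Pp1s22_10V6) had 1.22 downstream and the ATP synthase beta subunit gene (Pp1s154_66V6) 1.14 upstream. Their definitions do not say whether the products belong to mitochondria or plastids. The lower gene was that for sucrose-phosphate synthase (Pp1s131_3V6), of sucrose synthesis, at 0 after full rehydration and 67% in the hydrated library on scaffold 131 from 27732 to 27967. Both lipid genes were higher. Downstream of Pp1s194_151V6, defined as 1-alkyl-2-acetylglycerophosphocholine esterase, which removes the acetyl group of platelet-activating factor in animals, the level was 89% after full rehydration and 0 in the hydrated library. Downstream of the acyl-ACP thioesterase B gene (Pp1s36_12V6), which releases fatty acids in plastids, it was 91% (full rehydration) and 45% (hydrated).

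Both transport genes by definition were higher, and the single gene of the photosynthesis list was lower. The upstream flank of Pp1s159_1V6, for a transporter of myo-inositol, held a region that was at 73% after full rehydration and 27% in the hydrated library, and a shorter one inside it at 64% (full rehydration) and 31% (hydrated). The mitochondrial carrier gene Pp1s113_94V6 stood at 1.78 downstream in the authors' deposited table. A symporter gene of the DASS family (Pp1s313_53V6), which carries dicarboxylates or other divalent anions with sodium and was not matched by the transport pattern, was at 29% after full rehydration and 83% in the hydrated library. The photosynthesis gene, for the light-harvesting protein LHCB5 (Pp1s628_3V6), stood at -1.11 downstream in the authors' deposited table. Outside the lists by definition, and named after its value was seen, the gene for the small subunit of the carbon-fixing enzyme Rubisco (Pp1s161_16V6) stood at -1 downstream in the authors' deposited table. The hydroxyacylglutathione hydrolase gene (Pp1s446_8V6), which detoxifies methylglyoxal products, was at 32% (full rehydration) and 83% (hydrated) downstream and was the single redox gene by definition. With ontology terms the redox list held 5 genes, 2 higher and 3 lower, and the lipid list 3 genes, 2 higher and 1 lower. The transport list then held 3 genes, all higher, but its pattern missed some transport genes on both sides. Outside it, Pp1s45_4V6, with a gas transport term, stood at -1.89 downstream in the authors' deposited table. The NCS1 symporter gene Pp1s154_64V6, also outside it, stood at 1.14 downstream in the authors' deposited table. The redox genes added by terms included those for the myo-inositol transporter, the mitochondrial carrier and the Rubisco small subunit. No gene matched the list of dehydration proteins and chaperones (late embryogenesis abundant proteins, dehydrins, heat shock proteins, chaperones, aquaporins and trehalose enzymes).

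Other genes with a definition included both MOB1 genes, activators of NDR kinases in yeast and animals, on opposite sides. The body of Pp1s162_56V6 stood at 2.12 in the authors' deposited table, in a region shared with the upstream flank of a gene with kinase terms, Pp1s162_57V6. Pp1s282_60V6 stood at -1.09 upstream and -1.39 downstream in the authors' deposited table. Pp1s84_5V6, for the alpha subunit of a G protein, which relays receptor signals, was at 1.24 upstream, and a NifU-like gene (Pp1s507_10V6), of iron-sulfur cluster assembly, at 1.35 upstream, in the authors' deposited table. Pp1s339_2V6, a cellular nucleic acid-binding protein gene, was at 1.13 in its body and Pp1s2_70V6, an uncharacterized protein gene, at -3.22 upstream, in the authors' deposited table. Among genes with ontology terms only, 10 were higher and 15 lower. The genes without any annotation, 57 in number, had 37 higher, 19 lower and 1 both. Whether these shares differ between the classes of annotation was not tested.

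By part of the gene, the 147 entries fell into 58 in the 2 kb upstream (34 higher, 24 lower), 25 in gene bodies (18 higher, 7 lower) and 64 in the 2 kb downstream (33 higher, 31 lower). The share higher was 58.6% upstream, 72.0% in the body and 51.6% downstream. With overlapping regions merged into loci it was 55.6%, 63.2% and 49.1%, so the larger share in bodies came in part from genes that held several overlapping regions. A level of 0 was found in 11 regions listed as upstream, 3 in bodies and 6 downstream, where the region shared by Pp1s18_5V6 and Pp1s18_7V6 counts in 2 parts. Of the 132 regions, 119 were linked to 1 gene and 13 to several. Of the regions linked to exactly 2 genes, those upstream of both, as between divergent genes, lay at Pp1s100_4V6 and Pp1s100_5V6 and at Pp1s236_5V6 and Pp1s236_6V6, and both were higher. Those downstream of both, as between convergent genes, lay at Pp1s22_9V6 and Pp1s22_10V6 and at Pp1s489_24V6 and Pp1s489_26V6, and both were higher too. The 3 regions downstream of 1 gene and upstream of the other were lower. Both regions linked to 3 genes also lay downstream and upstream of different genes, and both were higher. They are the region of Pp1s154_64V6, Pp1s154_65V6 and Pp1s154_66V6 and that of Pp1s332_14V6, Pp1s332_17V6 and Pp1s332_18V6.

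**Figure D4:**
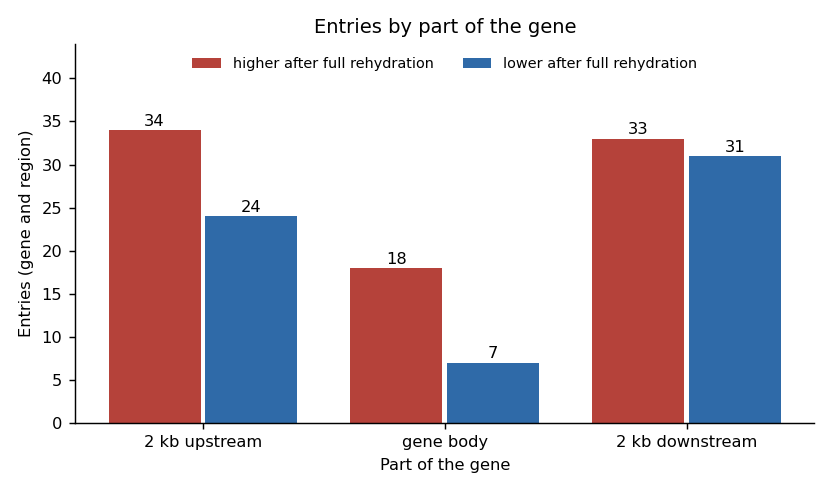
Number of entries, each a gene with a region, that were higher or lower after full rehydration, by the part of the gene. Higher entries outnumber lower ones by 34 to 24 upstream and 18 to 7 in the body, and stand at 33 to 31 downstream.

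The 132 regions lay on 113 scaffolds, and 98 scaffolds held 1 region. Overlapping regions formed 10 loci with 24 regions in all, and within each locus every region had the same direction, 7 loci higher and 3 lower. These regions share bases, so they do not support each other independently. At Pp1s226_12V6, 3 overlapping regions in the body were at 76%, 67% and 72% after full rehydration and 37%, 33% and 29% in the hydrated library. At Pp1s202_4V6, 4 regions were listed in the body and 1 downstream, with log2 ratios from 1 to 1.75 in the authors' deposited table, and the recovered one was at 64% (full rehydration) and 31% (hydrated). The body of Pp1s104_33V6 held a region at 13% after full rehydration and 59% in the hydrated library, and an overlapping one at its downstream side was at 38% (full rehydration) and 85% (hydrated). In 3 loci paired regions had both ends within 3 bases of each other. At Pp1s39_22V6, with a protein kinase term, both ends were offset by 1 base, and the levels were 71% (full rehydration) and 33% (hydrated) in the first and 79% (full rehydration) and 38% (hydrated) in the second. At Pp1s47_73V6, with an RNA processing term, both ends were offset by 2 bases, with log2 ratios of -1.09 and -1.08 in the authors' deposited table. At Pp1s23_41V6 the starts were offset by 3 bases and the ends by 2. Regions that did not overlap but lay within 5000 bases of each other formed 6 pairs, 5 of them with the same direction. The exception was on scaffold 332, where regions 2167 bases apart stood at 3.17 and -1.38 in the authors' deposited table.

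Of the 127 genes, 13 were also listed in another comparison, all of which share the hydrated library, so no overlap between comparisons was tested. With moderate dehydration it was 4 genes, with severe dehydration 1 and with partial rehydration 8. Neighbours with the same region are each counted here. With moderate dehydration these are Pp1s154_64V6, Pp1s154_65V6 and Pp1s154_66V6. With partial rehydration they are Pp1s18_5V6 with Pp1s18_7V6, and Pp1s508_5V6 with Pp1s508_6V6. The listed regions differed in their positions. On scaffolds 1 to 100 the median start was 113332 in full rehydration and 677974 in the other 3 comparisons. On scaffolds above 100 it was 85859 in full rehydration and 204806 in the other 3 comparisons. How far these positions limited the number of shared genes was not tested. That number therefore does not show that the other genes are specific to full rehydration. At Pp1s439_5V6, with an endopeptidase term, the same region was listed in partial and full rehydration, and the common hydrated level could be from 3% to 18%. At the lowest, the level was 13% after full rehydration, against 3% in the hydrated library, with 16% after partial rehydration. At the highest it was 78% after full rehydration, against 18% in the hydrated library, with 96% after partial rehydration. At Pp1s84_5V6 the shared region was at 45% after full rehydration, against 19% in the hydrated library, with 41% after moderate dehydration. The other possible set was 90% after full rehydration, against 38% in the hydrated library, with 82% after moderate dehydration. For the EREBP-like gene Pp1s120_13V6, the authors' deposited table gave -4.07 in full rehydration and -1.58 in partial rehydration, in regions that share 201 bases. The region of the ATP synthase beta gene Pp1s154_66V6 and its neighbours stood at 1.14 in full rehydration and 1.17 in moderate dehydration in the authors' deposited table, with 368 bases shared. At Pp1s159_1V6 the region of severe dehydration, at 1.14 in the authors' deposited table, shared no base with those of full rehydration.

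**Figure D5:**
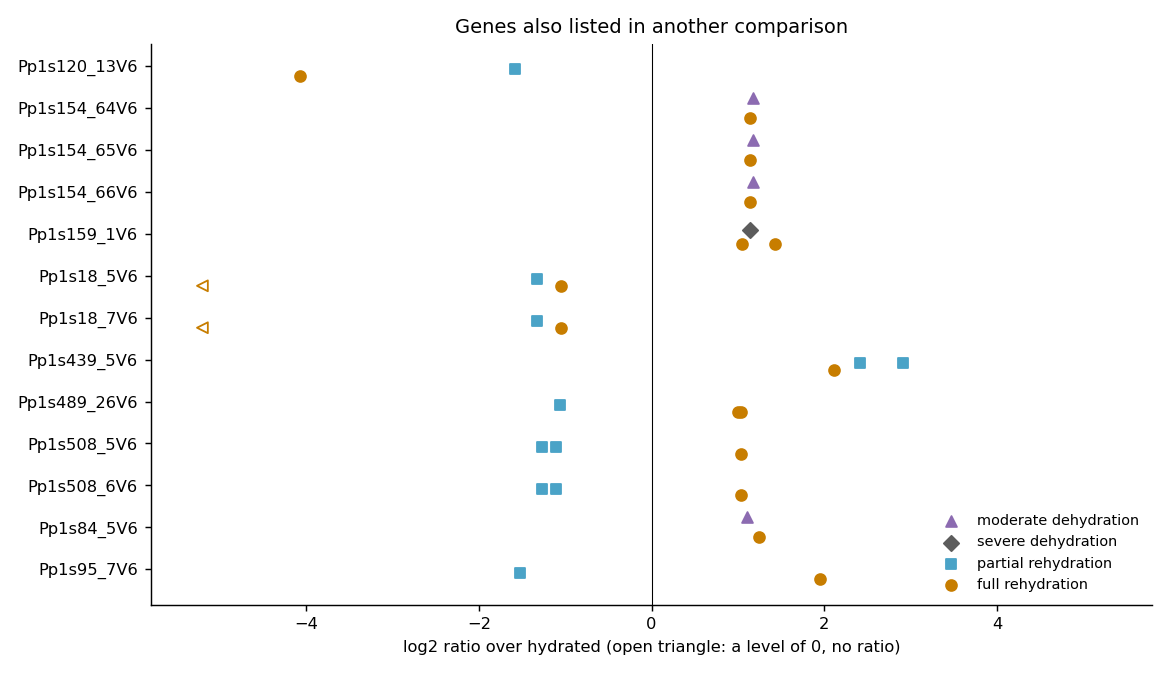
Log2 ratio over the hydrated library for the 13 genes listed both in full rehydration and in another comparison, 1 symbol per region and comparison. Open triangles mark a level of 0 after full rehydration, and 4 genes (Pp1s489_26V6, Pp1s508_5V6, Pp1s508_6V6 and Pp1s95_7V6) stand on opposite sides in full and partial rehydration. The other 4 genes shared with partial rehydration stand on the same side in both. The opposite regions share 106 bases at Pp1s95_7V6, at most 1 base at Pp1s508_5V6 and Pp1s508_6V6, and no base at Pp1s489_26V6. Pp1s508_5V6 and Pp1s508_6V6 have the same regions, as do Pp1s18_5V6 and Pp1s18_7V6.

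Set beside the other comparisons with the same hydrated library, the list of full rehydration is described by the measures below, none of them tested. The median of the smallest possible difference was 25 points, against 17.5 in moderate dehydration, 9 in severe dehydration and 20.5 in partial rehydration. Both levels could be recovered in 47.7% of its regions, against 20% in moderate dehydration, 9.09% in severe dehydration and 27.5% in partial rehydration. A level of 0, which enters both of these measures, was found in 19 of 132 regions, against 2 of 30, 0 of 22 and 1 of 40 in the same order. Higher regions were 74 of 132, against 21 of 30, 12 of 22 and 5 of 40. Its regions had a highest start of 746003 on their scaffolds, against 1711185 in moderate dehydration, 1155071 in severe dehydration and 2249385 in partial rehydration. What part of the scaffolds was examined in each comparison is not given, and its part in these differences was not tested.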

How the data were processed

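DNA methylation was measured by bisulfite sequencing, and 2 of the 5 libraries, fully rehydrated and hydrated gametophores, are compared here. The 1 file used is the authors' deposited table, whose text cells join 5 fields per entry, per the file headers, among them a log2 methylation ratio. No aligner, caller, threshold, genome build, cytosine context or coverage is given in the sources used here, so the depth behind each value is unknown. The sign and the Up or Down word were the same way round in 147 of 147 entries.

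Entries were parsed with Python 3.11.15 and pandas 2.3.3, and a region with the same ends counted once. Levels were taken back by trying all whole-percent pairs against the ratio (relative tolerance 1e-09, 0.001 for a level of 0). The code was run on 5200 made pairs, which does not test the premise of whole percents. Exact intervals used SciPy 1.17.1. Of 225 gene identifiers, 0 were found in the RefSeq gene table at hand, so names follow the authors' definitions and no sequence is shown.

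The members, lists and alternatives were chosen with earlier results of these data known. Named genes were those of the lists (in full, the 3 largest ratios per list and direction and defined genes with a level of 0), the 10 other annotated and 5 unannotated genes with the largest ratios per direction, and genes with several regions or listed in another comparison, described in part by counts. Single genes beyond this rule were chosen after their values were seen. With 1 library per state, no test was planned or made.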

Additional observations from a re-analysis of the deposited data

Results flagged for a closer look

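At 4 of the 8 genes listed in both, the authors' deposited table lists full and partial rehydration in opposite directions relative to the hydrated library. The other 4 had the same direction in both. Neighbours with the same regions are each counted, namely Pp1s508_5V6 and Pp1s508_6V6 (opposite directions) and Pp1s18_5V6 and Pp1s18_7V6 (same direction). Higher regions were 74 of 132 in full rehydration but 5 of 40 in partial rehydration, so the lists differ in direction as a whole. No difference in direction was tested, since each state had 1 library. The body of the RPS2-like gene Pp1s95_7V6 stood at 1.95 in full rehydration and -1.52 in partial rehydration in the authors' deposited table, in regions that share 106 bases. At the RPM1-like gene Pp1s508_5V6 and its neighbour Pp1s508_6V6, the authors' deposited table gave 1.04 in full rehydration and -1.26 and -1.11 in partial rehydration, in regions that share at most 1 base. Downstream of Pp1s489_26V6, the authors' deposited table gave 1.04 in full rehydration and -1.06 in partial rehydration, in regions that share no base.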

How the results depend on the processing

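The share of regions higher after full rehydration was 56.1% as reported and ran from 48.6% to 58.4% over its 4 alternatives, all inside its exact interval. It fell below an even split only when regions with an absolute log2 ratio under 1.5 were left out (34 of 70 higher). The median size was then 3.40 instead of 1.58, which that minimum sets by construction. Under the other alternatives the median ran from 1.38 (without a level of 0) to 1.67 (overlapping regions merged). Regions with a level of 0 numbered 18 to 21 and recovered regions 55 to 67 when every entry was counted or overlapping regions were merged, against 19 and 63, and a tolerance of 1e-06 changed neither. With overlapping regions merged, the share higher was 55.6% against 58.6% upstream, 63.2% against 72.0% in the body and 49.1% against 51.6% downstream. Matching ontology terms as well as definitions took the genes in at least 1 list to 47, against 34, and moved the kinase and phosphatase list to 16 genes, against 7, the splicing and RNA list to 6, against 3, the redox list to 5, against 1, and the cytoskeleton list to 2, against 1. No paired analysis was possible because each state had 1 library. Without coverage, no counting interval can be given for a single level, and listed regions say nothing of regions that were not listed.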
